A study of Hordeum vulgare with 12 samples.

Results

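The miR160 and miR167 families of barley (Hordeum vulgare) were followed across 12 small RNA libraries. Members were the sequences whose miRNA names gave miR160 or miR167 more often than any other family number. This took 66 of the 3258 sequences listed, 26 of miR160 and 40 of miR167. The libraries came from shoots and roots of 2-week-old plants of the cultivar Golden Promise, grown in perlite with a nutrient medium whose NH4NO3 was at 28 mM in the control and at 280 mM in the nitrogen-excess condition, all else in the medium being equal. The 4 groups, control shoot, nitrogen-excess shoot, control root and nitrogen-excess root, held 3 biological replicates each. Per the labels' protocols 2 seedlings shared a pot, and no mutant or transgenic line was used.

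Both miRNAs act on auxin response factors (ARFs), the transcription factors that read out the hormone auxin. In Arabidopsis, miR160 guides cleavage of the ARF10, ARF16 and ARF17 messages, a class of repressors, and miR167 that of the activators ARF6 and ARF8, and both miRNAs take part in root development there. Each miRNA is cut as a duplex from a hairpin precursor. The 5p strand of these families is the usual guide, and the 3p strand is its partner, which is mostly discarded.

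Of the 66 members, 36 had no count in any library, 30 had at least 1 count, and 12 had a mean of at least 10 counts per library. The 12 are shown here because they hold most of the counts of both families, with bases 2 to 8 (called the seed here) in capitals and in the DNA letters of the deposited tables.
ata-miR160a-5p: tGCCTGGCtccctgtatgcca
bdi-miR160e-5p: tGCCTGGCtccctgaatgcca
ata-miR160c-3p: gCGTGCAAggagccaagcatg
ata-miR167d-5p: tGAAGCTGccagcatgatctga
ata-miR167f-5p: tGAAGCTGccagcatgatctgc
aly-miR167d-5p: tGAAGCTGccagcatgatctgg
bna-miR167a: tGAAGCTGccagcatgatctaa
ata-miR167b-3p: aGGTCATGctggagtttcatc
ata-miR167d-3p: aGGTCATGtggcagcttcatt
ata-miR167a-3p: gATCGTGCtgtgacagtttcacc
ata-miR167c-3p: gATCATGActgacagcctcatt
ata-miR167f-3p: cAGATCATgctgcagcttcat

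The names are those of other plants (ata is the goat grass Aegilops tauschii, bdi the grass Brachypodium distachyon), since none of the members carried a barley name. The same sequence can carry many names, and ata-miR160a-5p carried 46. The miR160 5p sequences share the seed GCCTGGC, and the 4 miR167 5p sequences shown share GAAGCTG. Counting positions from 1 at the 5′ end of the first-named sequence, ata-miR160a-5p and bdi-miR160e-5p differ by T15A. From ata-miR167d-5p, ata-miR167f-5p differs by A22C, aly-miR167d-5p by A22G and bna-miR167a by G21A, all at the 3′ end and outside the seed. The 3p sequences are more varied, and only ata-miR167b-3p and ata-miR167d-3p among the 5 of miR167 shown share a seed. Sequences 1 base apart can take each other's reads through sequencing or synthesis errors, with the mismatches allowed in counting not given in the sources used here.

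The libraries held 245176 to 2246495 counts. Levels are in CPM (counts over library size, on the usual scale), with library sizes scaled by the trimmed mean of M values (TMM), whose factors ran from 0.369 to 1.82. On an axis from the mean of the shoots (0) to the mean of the roots (1), drawn over 177 sequences (the 2 means a library was set against did not include that library itself), a position of 1.06 was found for nitrogen-excess shoot 3, as labelled, and one of -0.19 for control root 3, as labelled. The other 5 shoots lay between -0.35 and 0.03, and the other 5 roots between 0.77 and 1.38. Both libraries thus lay with the opposite tissue, also with the 14 members left out of the axis (1.07 and -0.18), and fold changes of the main members are given with and without them. Because they were picked by tissue position, leaving them out favours differences between root and shoot. Such fits are not independent tests of tissue. The library labelled nitrogen-excess shoot 3 was also the shallowest. By the library names, the first replicates of all 4 groups form a naming series A, nitrogen-excess root 3 a series C of its own, and the remaining 7 libraries a series B. Series B thus holds both libraries that lay with the opposite tissue, and values within series B include them.

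miR167 was the far more abundant family. Its members summed to 314513 counts over the 12 libraries, the 7th highest of 384 families with counts, and miR160 to 4430 counts, the 34th highest. Within single libraries miR167 exceeded miR160 between 32.1-fold, in nitrogen-excess root 3, and 131-fold, in control root 2, with a median of 76.3-fold. The log2 ratio of the families was 6.41 ± 0.42 (SD, n = 3) in control shoots and 6.35 ± 0.41 in nitrogen-excess shoots. It was 6.65 ± 0.41 in control roots and 5.77 ± 0.68 in nitrogen-excess roots. All 4 groups overlapped, and the lowest p of the 4 comparisons was 0.2, for nitrogen excess in roots (two-sided exact permutation test, 3 libraries against 3, for which 0.1 is the smallest p possible).

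A few sequences carried each family. ata-miR160a-5p made up 66.8% of the miR160 5p counts, ata-miR160c-3p 79.0% of the miR160 3p counts, ata-miR167d-5p 66.6% of the miR167 5p counts and ata-miR167b-3p 59.7% of the miR167 3p counts. The 18 members with counts but a mean under 10 held between 1 and 95 counts each over all libraries, with cme-miR167c (95 counts) and zma-miR160a-3p (89 counts) the highest. The dominant miR167 5p form was 22 nt long. In 10 pairs of members in which a sequence with at least 10 counts contained a shorter listed one, the shorter one had no count in any library, so the shorter forms have no values here.

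**Figure D1:**
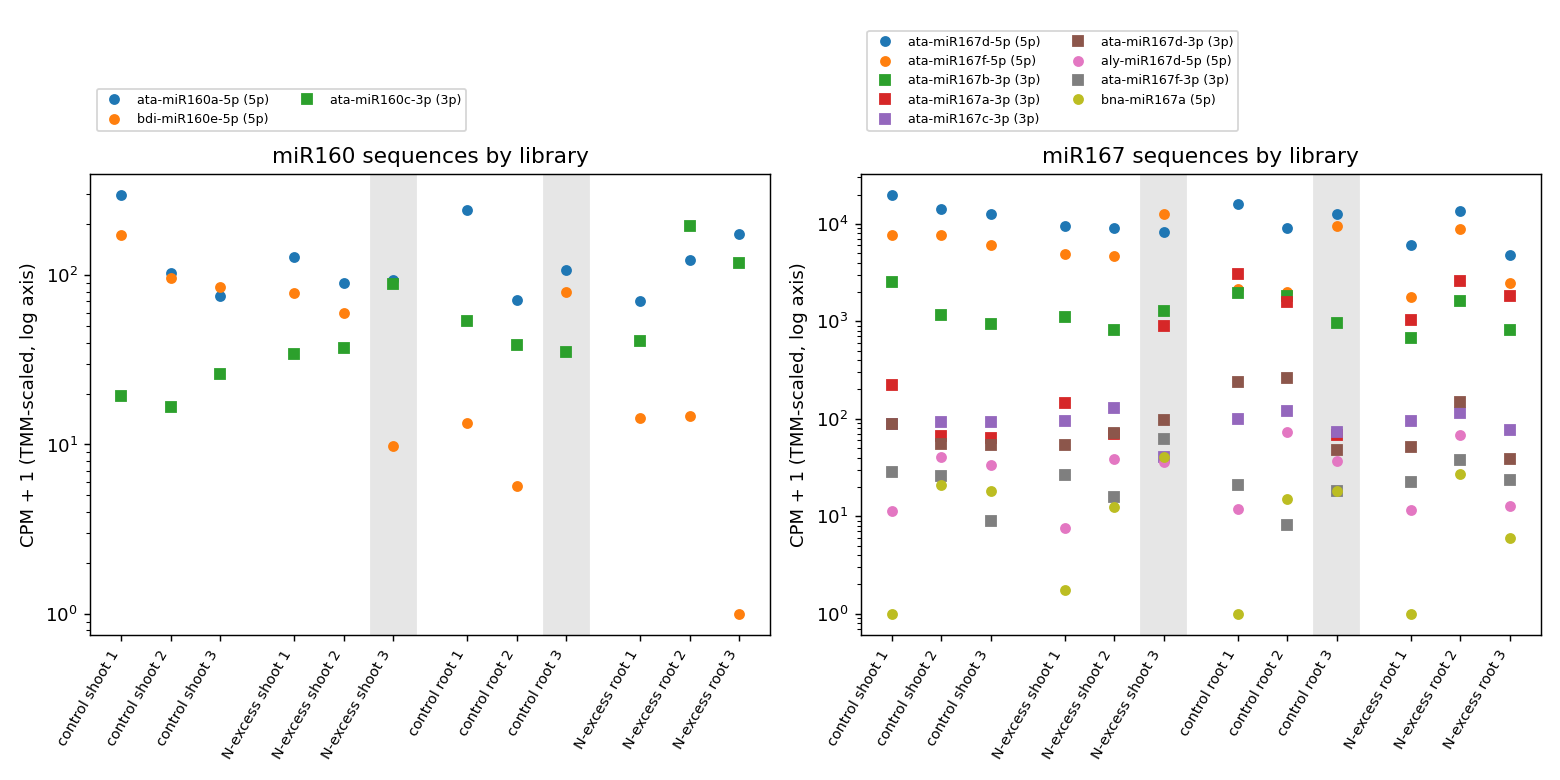
Level of the 12 miR160 and miR167 sequences with a mean of at least 10 counts in each of the 12 libraries, as TMM-scaled CPM plus 1 on a log axis. Circles are 5p and squares 3p sequences, and grey bands mark the libraries labelled nitrogen-excess shoot 3 and control root 3. ata-miR167d-5p lies between 4808 and 19682 CPM, and ata-miR160a-5p between 69.4 and 296 CPM.

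Under nitrogen excess, the guide strand of miR160 did not separate the groups. ata-miR160a-5p stood at 296, 102 and 74.1 CPM in control shoots and at 127, 88.5 and 92.5 CPM in nitrogen-excess shoots. It stood at 242, 70.7 and 106 CPM in control roots and at 69.4, 123 and 175 CPM in nitrogen-excess roots. The groups overlapped in both tissues, and replicate 1 was the highest library of each control group. The log2 fold change with nitrogen excess was -0.61 ± 0.84 (SE) in shoots and -0.18 ± 0.93 in roots (edgeR quasi-likelihood test, Benjamini-Hochberg adjusted p = 0.876 and 0.951). Within naming series, the difference in log2 (CPM + 1) was -1.22 in series A and 0.06 in series B in shoots, and -1.78 and 0.50 in roots, so that its sign was not the same in both series. Leaving out the library that stood apart gave -0.55 ± 0.78 in shoots and -0.35 ± 0.96 in roots.

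The minor miR160 guide, bdi-miR160e-5p, was measured at 172, 95.9 and 84.3 CPM in control shoots and at 77.4, 59.0 and 8.81 CPM in nitrogen-excess shoots, so that every control shoot was above every nitrogen-excess shoot. Its log2 fold change in shoots was -1.22 ± 0.86 (SE), which did not pass the test (edgeR adjusted p = 0.603), and leaving out the library labelled nitrogen-excess shoot 3 gave -0.78 ± 0.67. The difference in log2 (CPM + 1) in shoots was -1.14 within series A and -1.91 within series B. In roots it was too low for the filter on low counts (0 to 78.2 CPM) and was not tested for nitrogen.

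The main miR160 partner strand had a positive log2 fold change with nitrogen excess in both tissues, though neither passed the test. ata-miR160c-3p was at 18.3, 15.6 and 25.2 CPM in control shoots and at 33.0, 36.3 and 88.1 CPM in nitrogen-excess shoots. It was at 52.7, 37.7 and 34.4 CPM in control roots and at 40.0, 193 and 117 CPM in nitrogen-excess roots. On the TMM scale the groups did not overlap in shoots and overlapped in roots. The shoot values came from 28, 32 and 54 counts in controls and 135, 32 and 20 counts under nitrogen excess. Over unscaled library totals the shoot groups overlapped as well. Its log2 fold change was 1.37 ± 0.82 (SE) in shoots and 1.49 ± 0.96 in roots (edgeR adjusted p = 0.513 and 0.951). The value in shoots was 0.81 ± 0.66 when the library labelled nitrogen-excess shoot 3 was left out, and that in roots 1.37 ± 1.05 when control root 3 was. The difference in log2 (CPM + 1) in shoots was 0.82 within series A and 1.47 within series B. In roots it was -0.39 in series A (1 library against 1) and 2.39 in series B (2 control libraries against 1), so the positive value in roots did not hold in series A.

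The ratio of the summed miR160 strands within a library does not depend on scaling. It mixes several sequences and is not the strand balance of 1 hairpin. In the 5p sum, bdi-miR160e-5p took 0% to 53.2% of its counts with ata-miR160a-5p over the 12 libraries. Of the 3p sum, ata-miR160c-3p held 79.0%. The log2 ratio of miR160 5p to 3p counts was 3.92, 2.66 and 1.99 in control shoots and 2.31, 1.55 and -0.06 in nitrogen-excess shoots. In roots it was 2.02, 0.98 and 2.12 in controls and 0.36, -0.63 and 0.35 under nitrogen excess. All 3 nitrogen-excess roots were thus below all 3 control roots. In linear terms the 5p sum was at 1.97 to 4.33 times the 3p sum in control roots and at 0.646 to 1.29 times in nitrogen-excess roots. The mean log2 ratio in roots was 1.71 ± 0.63 (SD, n = 3) in controls and 0.03 ± 0.57 under nitrogen excess, a difference of -1.68. Its p was 0.1, the smallest possible, in the two-sided exact permutation test. This p was not adjusted for the number of ratios and comparisons tested. The difference was -1.66 within naming series A (1 library against 1) and -2.18 within series B (2 control libraries, control root 3 among them, against 1). Over all series it was -1.47 without the library labelled control root 3.

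In shoots the same ratio averaged 2.86 ± 0.98 in controls and 1.27 ± 1.21 under nitrogen excess. The groups overlapped, and the difference of -1.59 had an exact permutation p of 0.2. Leaving out the library labelled nitrogen-excess shoot 3, which had the lowest shoot value (-0.06), gave a difference of -0.93. Within series A it was -1.61 (1 library against 1). Within series B, which holds nitrogen-excess shoot 3, it was -1.58 (2 against 2). Whether the difference was unequal between tissues was not tested. The 3p side of these ratios rested on 16 to 329 counts per library.

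**Figure D2:**
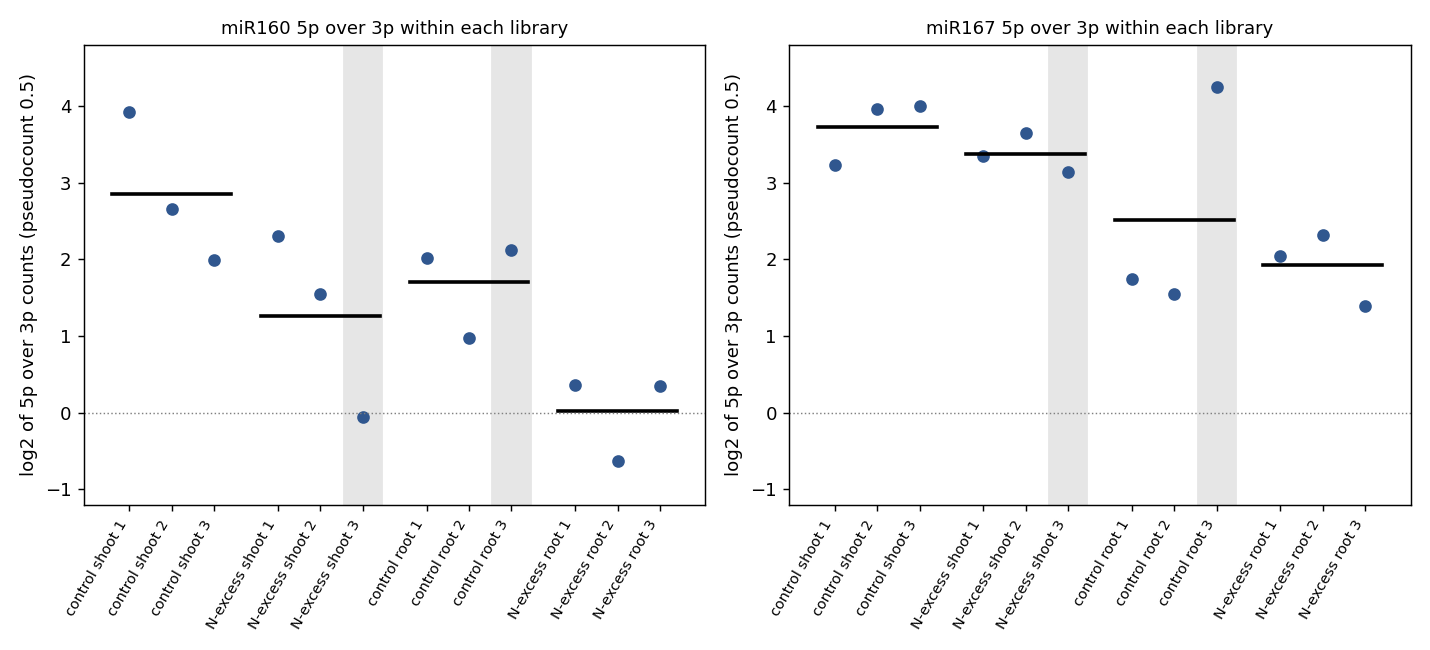
Log2 ratio of 5p to 3p counts of miR160 (left) and miR167 (right) within each library, with a pseudocount of 0.5. Points are libraries, black lines are means of the 3 libraries of a group, and grey bands mark the libraries labelled nitrogen-excess shoot 3 and control root 3. The miR160 ratios of nitrogen-excess roots (-0.63 to 0.36) lie below those of control roots (0.98 to 2.12), and the miR167 ratios lie below those of all shoots in 5 of the 6 roots.

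The major miR167 guide was lower in every nitrogen-excess shoot than in every control shoot. ata-miR167d-5p stood at 19682, 14266 and 12544 CPM in control shoots and at 9568, 9091 and 8332 CPM in nitrogen-excess shoots. In roots the groups overlapped, with 15858, 9069.8 and 12766 CPM in controls and 6028, 13628 and 4808 CPM under nitrogen excess. The log2 fold change was -0.78 ± 0.69 (SE) in shoots and -0.62 ± 0.82 in roots, and neither passed the test (edgeR adjusted p = 0.731 and 0.951). The difference in log2 (CPM + 1) was -1.04 within series A and -0.62 within series B in shoots, and -1.40 and 0.34 in roots, where it did not keep its sign in series B. Leaving out the library that stood apart gave -0.73 ± 0.53 in shoots and -0.61 ± 0.74 in roots. The shoot spread on this scale was small in the nitrogen-excess group (8997 ± 623 CPM, SD, n = 3) and larger in controls (15497 ± 3725 CPM).

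Its variant with another last base, ata-miR167f-5p, was measured at 7761, 7684 and 5996 CPM in control shoots and at 4897, 4633 and 12669 CPM in nitrogen-excess shoots. The last value, of the library labelled nitrogen-excess shoot 3, was the highest of all 12. In roots it was at 2169.8, 1983 and 9488 CPM in controls and at 1757, 8810.0 and 2465 CPM under nitrogen excess, so that 1 library of each root group stood well above the others. The groups overlapped in both tissues. The log2 fold change was 0.050 ± 0.75 (SE) in shoots and -0.066 ± 0.99 in roots (edgeR adjusted p = 0.987 and 0.977), and in both its sign turned with the library that stood apart. It was -0.58 ± 0.55 in shoots without nitrogen-excess shoot 3 and 1.06 ± 0.83 in roots without control root 3, neither of which passed the test (edgeR adjusted p = 0.921 and 0.807).

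Among the miR167 partner strands, ata-miR167b-3p ranged from 673 to 2505 CPM and ata-miR167c-3p from 39.6 to 127 CPM over the 12 libraries, with overlapping nitrogen groups in both tissues. ata-miR167f-3p was at 20.1, 7.07 and 17.2 CPM in control roots and at 21.4, 36.8 and 22.6 CPM in nitrogen-excess roots, which did not overlap on the TMM scale (log2 fold change 0.84 ± 0.93 SE, edgeR adjusted p = 0.951). The difference in log2 (CPM + 1) was 0.08 within series A and 1.64 within series B. These levels came from 13, 3 and 20 counts in control roots and 8, 24 and 54 in nitrogen-excess roots, which overlapped over unscaled library totals. ata-miR167d-3p was at 239, 262 and 47.3 CPM in control roots and at 50.7, 149 and 37.3 CPM in nitrogen-excess roots, which overlapped (-1.21 ± 1.03 SE, edgeR adjusted p = 0.951). Without control root 3 the root values of these 2 sequences were 0.95 ± 1.18 and -1.66 ± 0.95. ata-miR167a-3p had the largest positive shoot value, 1.67 ± 1.03 (SE, edgeR adjusted p = 0.513), which rested on the library labelled nitrogen-excess shoot 3: without it the value was -0.12 ± 0.80. In roots it was 0.21 ± 1.12 (edgeR adjusted p = 0.951), and -0.35 ± 0.76 without control root 3.

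None of the members passed the test for nitrogen excess. In shoots 13 members were tested and 0 were called at an adjusted p under 0.05, where 0% of all 148 sequences tested were called; 0 of the 13 and 15 of the 148 had an unadjusted p under 0.05. In roots 10 were tested and 0 called, where 0% of all 146 were called; 0 of the 10 and 1 of the 146 had an unadjusted p under 0.05. Of all 148 sequences tested in shoots, DESeq2 called 8 and limma-voom 1, and of the 146 in roots both called 0; neither tool called a member. Members whose nitrogen groups did not overlap on the TMM scale were 1 higher and 2 lower of 13 in shoots, where 9.46% of all sequences tested were higher and 4.73% lower without overlap, 14.2% in all. In roots they were 1 higher and 0 lower of 10, where the shares over all sequences were 5.48% and 2.74%, 8.22% in all. The median log2 fold change of the tested members was 0.05 in shoots and -0.12 in roots, and that of all sequences tested was 0.09 and -0.29. The other tested members, those not given with a fold change of their own, ran from -0.53 to 0.69 in shoots (7 sequences) and from -0.62 to -0.03 in roots (3 sequences). Without the library that stood apart these ranges were -1.22 to 0.30 and -0.87 to -0.20. The authors' deposited table gave no adjusted p under 0.526 for a member in shoots and none under 0.958 in roots.

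Summed over the family, miR160 had a log2 fold change of -0.51 ± 0.66 (SE) in shoots and 0.31 ± 1.09 in roots, and miR167 of -0.44 ± 0.62 and -0.40 ± 0.82. None of these passed the test (edgeR adjusted p = 0.765 and 0.980 for miR160, 0.795 and 0.980 for miR167). Leaving out the library that stood apart gave -0.48 and 0.33 for miR160 and -0.67 and -0.30 for miR167. In both tissues 0% of the families tested were called (57 in shoots and 65 in roots). The test of whether the nitrogen effect differed between tissues called 0 of 14 members tested, where 0% of 177 sequences were called; 0 of the 14 and 8 of the 177 had an unadjusted p under 0.05. Of the 74 families tested for it 0% were called, with an edgeR adjusted p of 0.855 for miR160 and 0.986 for miR167.

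**Figure D3:**
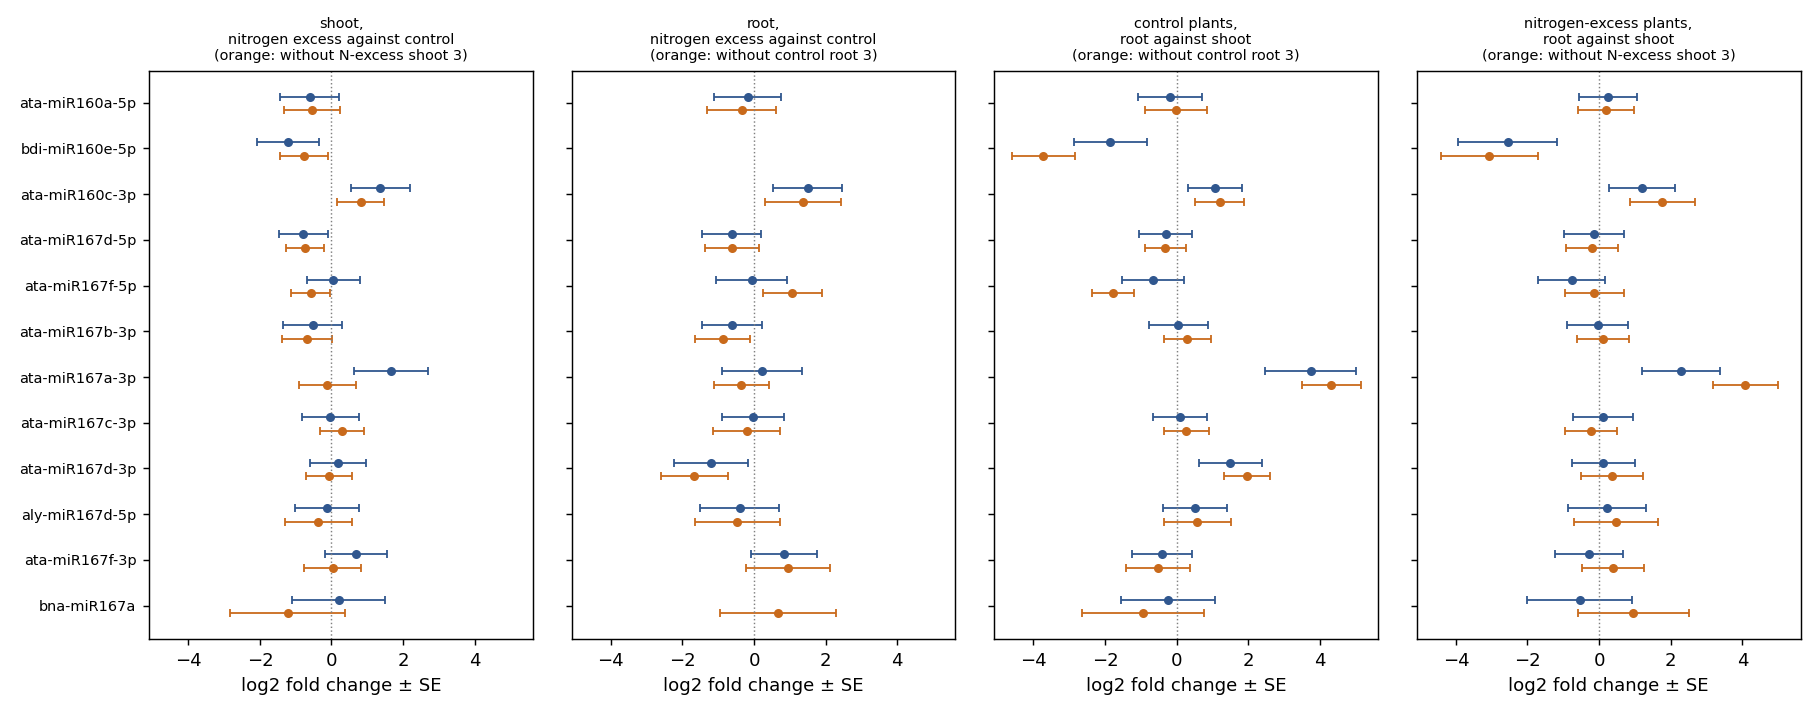
Log2 fold change (edgeR, with SE as error bars) of the 12 sequences in the 4 comparisons, with all libraries (blue) and without the library that stood apart in that comparison (orange). bdi-miR160e-5p and bna-miR167a have no blue point in roots because they did not pass the filter on low counts there. The widest departures from 0 are those of ata-miR167a-3p (positive) and bdi-miR160e-5p (negative) between root and shoot.

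The widest gap between roots and shoots was that of ata-miR167a-3p, a 23-nt partner strand that shares its seed with no other sequence shown. It stood at 221, 65.7 and 62.0 CPM in control shoots and at 3048, 1575 and 67.9 CPM in control roots. In nitrogen-excess plants it stood at 144, 69.2 and 903 CPM in shoots and at 1041, 2572 and 1814 CPM in roots. The low root value and the high shoot value were those of the libraries labelled control root 3 and nitrogen-excess shoot 3. The groups overlapped in control plants and not in nitrogen-excess plants.

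The log2 fold change of ata-miR167a-3p, root over shoot, was 3.75 ± 1.27 (SE) in control plants and 2.29 ± 1.09 in nitrogen-excess plants, and neither passed the test with all libraries (edgeR adjusted p = 0.255 and 0.764). Without the library labelled control root 3 it was 4.32 ± 0.82 in control plants (adjusted p = 0.00653), and leaving out nitrogen-excess shoot 3 gave 4.08 ± 0.90 in nitrogen-excess plants (adjusted p = 0.0344, both edgeR). Each library was left out for lying with the opposite tissue, which favours a call between tissues. DESeq2 on all libraries called ata-miR167a-3p in control plants (3.82, adjusted p = 0.0049) and not in nitrogen-excess plants (2.31, adjusted p = 0.197). Within naming series, the difference in log2 (CPM + 1) in control plants was 3.78 in series A (1 library against 1) and 2.35 in series B (2 against 2). In nitrogen-excess plants it was 2.85 in series A (1 against 1) and 3.35 in series B (1 root against 2 shoots).

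The minor miR160 guide showed the opposite order. bdi-miR160e-5p, with 84.3 to 172 CPM in control shoots, was at 12.4, 4.72 and 78.2 CPM in control roots, the last in the library labelled control root 3. It was at 13.3, 13.8 and 0 CPM in nitrogen-excess roots, against 77.4, 59.0 and 8.81 CPM in nitrogen-excess shoots. The control groups did not overlap. The nitrogen-excess groups did. Within each of the 3 same-numbered pairs of nitrogen-excess plants the root was the lower, though whether the numbers pair the libraries is uncertain. In the pair numbered 3 this was 0 against 2 counts. The log2 fold change, root over shoot, was -1.85 ± 1.02 (SE) in control plants and -2.55 ± 1.39 in nitrogen-excess plants (edgeR adjusted p = 0.430 and 0.777), where the replicate number as a block gave -2.88 ± 1.04 (edgeR adjusted p = 0.234). Without the library labelled control root 3 the first was -3.72 ± 0.88 and passed the test (edgeR adjusted p = 0.0197). That fit left out a library picked by its tissue position, which favours such a call. The 2 control roots left in that fit had 8 and 2 counts, under the filter's minimum of 10, so the sequence entered it through the control shoots (263, 197 and 181 counts), the group where it was high. The second came to -3.06 ± 1.36 when nitrogen-excess shoot 3 was left out and did not pass (edgeR adjusted p = 0.196). Within naming series, the difference in log2 (CPM + 1) was -3.69 in series A and -2.10 in series B in control plants, and -2.45 and -0.71 in nitrogen-excess plants.

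The make-up of both families can also be given as shares within a library, which no scaling touches. These shares were chosen after their values were seen and are given without a test. Of the counts of ata-miR160a-5p and bdi-miR160e-5p together, the latter took 36.7%, 48.4% and 53.2% in control shoots and 37.9% and 40.0% in nitrogen-excess shoots 1 and 2. It took 4.88% and 6.25% in control roots 1 and 2, 16.1% and 10.1% in nitrogen-excess roots 1 and 2, and 0 of 418 counts in nitrogen-excess root 3, which allows a share of up to 0.718%. The library labelled nitrogen-excess shoot 3 had 8.70%, from 2 of 23 counts (95% Wilson interval 2.42% to 26.8%), and the library labelled control root 3 had 42.5% (36.1% to 49.2%). Both thus fell within the range of the other tissue, as they did over all sequences.

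Of all miR167 3p counts, ata-miR167a-3p took 4.66% to 10.1% in the 5 other shoots and 41.5% to 65.4% in the 5 other roots. The library labelled nitrogen-excess shoot 3 had 37.8% (95% Wilson interval 33.8% to 42.0%), and the library labelled control root 3 had 5.77% (4.65% to 7.13%). The first lay just below the range of the other roots and the second within that of the other shoots. ata-miR167f-5p, as a share of itself and ata-miR167d-5p, gave no such split, with 28.3% to 35.0% in the 5 other shoots and 12% to 39.3% in the 5 other roots. The intervals cover counting error only, since reads amplified by PCR are not independent molecules.

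**Figure D4:**
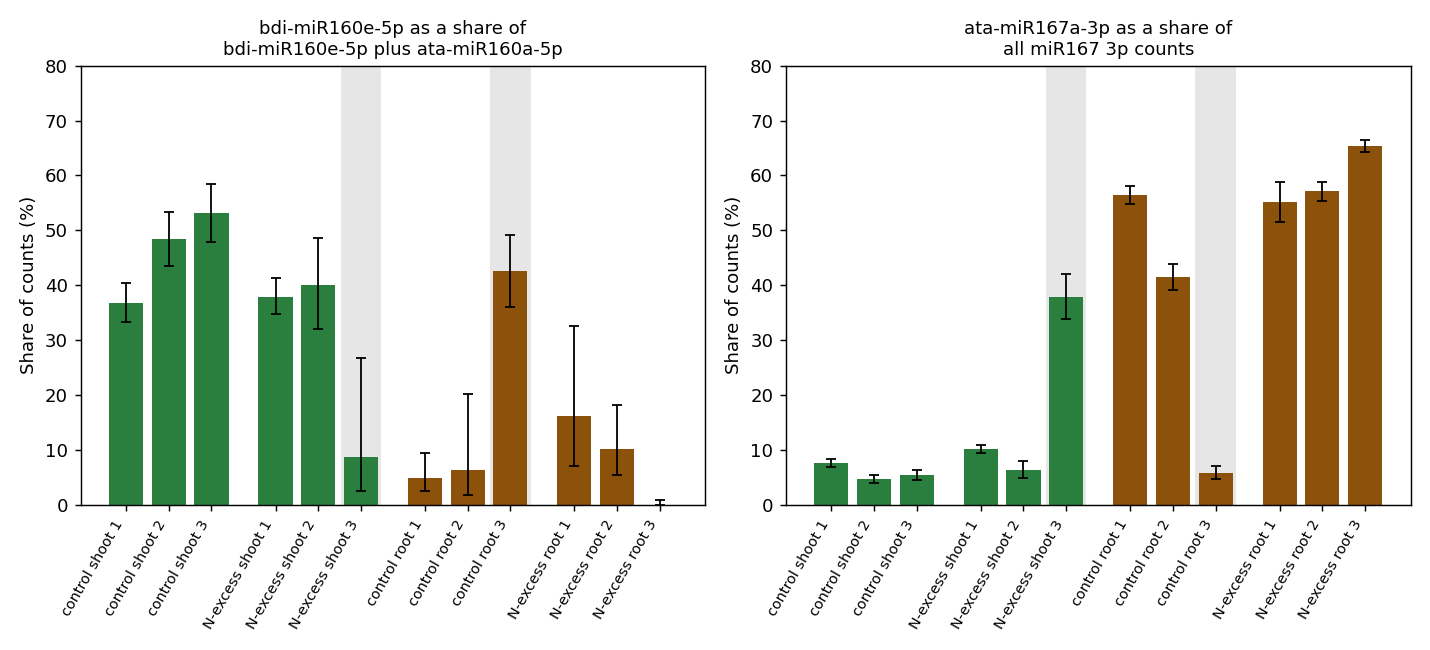
Share in percent of bdi-miR160e-5p among the counts of itself and ata-miR160a-5p (left) and of ata-miR167a-3p among all miR167 3p counts (right) in each library, with 95% Wilson intervals. Green bars are libraries labelled shoot, brown bars libraries labelled root, and grey bands mark nitrogen-excess shoot 3 and control root 3. Apart from those 2 libraries, shoots hold 36.7% to 53.2% on the left and 4.66% to 10.1% on the right, and roots 0% to 16.1% and 41.5% to 65.4%.

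Summed over their sequences, the miR167 strands were less unequal in 5 of the 6 roots than in any shoot. Of the 3p sum, ata-miR167a-3p alone made up 41.5% to 65.4% in those 5 roots. In the 5 shoots other than nitrogen-excess shoot 3 it made up 4.66% to 10.1%. The ratio thus mixes several sequences, was not taken without ata-miR167a-3p, and is not the strand balance of 1 hairpin. The log2 ratio of miR167 5p to 3p counts was 3.23, 3.96 and 4.00 in control shoots and 3.34, 3.64 and 3.14 in nitrogen-excess shoots. It was 1.74, 1.55 and 4.25 in control roots and 2.05, 2.32 and 1.39 in nitrogen-excess roots. In linear terms, the 5p strand exceeded the 3p strand 8.82- to 16.0-fold in the 6 shoots and 2.63- to 5.00-fold in the roots, except for 19.0-fold in the library labelled control root 3. In nitrogen-excess plants all 3 roots lay below all 3 shoots, with a difference of -1.45 and an unadjusted exact permutation p of 0.1, the smallest possible. In control plants the difference was -1.22 with an exact permutation p of 0.4, and -2.09 without the library labelled control root 3. Within series A it was -1.49 in control plants and -1.30 in nitrogen-excess plants, and within series B -1.08 and -1.07. Nitrogen excess gave a difference of -0.36 in shoots and -0.59 in roots, with overlapping groups (exact permutation p = 0.3 and 0.8).

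Between tissues, 13 members were tested in control plants and 0 were called, where 0% of all 144 sequences tested were called; 1 of the 13 and 23 of the 144 had an unadjusted p under 0.05. In nitrogen-excess plants 12 were tested and 0 called, where 0% of all 149 were called; 0 of the 12 and 10 of the 149 had an unadjusted p under 0.05. DESeq2 called 16 of the 144 (11.1%), 1 of them a member, and 1 of the 149 (0.671%), which was no member; limma-voom called no member. With no filter on low counts, 20 of 457 sequences were called in control plants (4.38%), with 2 members among them, ata-miR167a-3p and zma-miR167b-3p. The latter was picked out for that call. It had 37 counts in all, with 0 in each control shoot and 16, 2 and 0 in control roots. Without the library labelled control root 3, 2 members were among the 36 sequences called in control plants (23.5% of 153 tested). With nitrogen-excess shoot 3 left out, 1 member was among the 17 called in nitrogen-excess plants (10% of 170 tested). Both fits left out a library picked by its tissue position, which favours calls between tissues. Members whose tissues did not overlap on the TMM scale were 1 higher in root (ata-miR160c-3p) and 1 lower (bdi-miR160e-5p) of 13 in control plants, where 2.78% of all sequences were higher and 4.17% lower, 6.94% in all. In nitrogen-excess plants they were 1 higher (ata-miR167a-3p) and 0 lower of 12, where the shares were 7.38% and 4.7%, 12.1% in all. The other tested members ran from -0.41 to 0.52 in control plants and from -0.54 to 0.26 in nitrogen-excess plants (8 sequences each, ata-miR160a-5p among them). Without the library that stood apart these ranges were -0.93 to 0.58 and -0.23 to 0.95.

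The log2 fold change of ata-miR160c-3p, root over shoot, was 1.07 ± 0.75 (SE) in control plants and 1.19 ± 0.92 in nitrogen-excess plants (edgeR adjusted p = 0.539 and 0.808), and 1.20 ± 0.68 and 1.76 ± 0.91 without the library that stood apart. Its counts were 28, 32 and 54 in control shoots and 34, 16 and 40 in control roots. Over unscaled library totals these groups overlapped, so its separation in control plants depended on the TMM factors (0.395 and 0.369 in control roots 1 and 2). ata-miR167d-3p, at 1.5 ± 0.88 in control plants (edgeR adjusted p = 0.485), came to 1.96 ± 0.64 without the library labelled control root 3 (edgeR adjusted p = 0.0571). With libraries scaled to equal totals its value with all libraries was -0.05. ata-miR167f-5p, at -0.65 ± 0.87 (edgeR adjusted p = 0.855), came to -1.78 ± 0.59 without the same library (edgeR adjusted p = 0.0571), and in nitrogen-excess plants it was at -0.77 ± 0.94 (edgeR adjusted p = 0.819), and at -0.13 ± 0.83 without nitrogen-excess shoot 3.

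The tissue levels of the whole families depended on the scaling. miR167 took 1.68% to 3.96% of all listed counts in the 5 other shoots and 0.552% to 1.51% in the 5 other roots, with 2.17% in the library labelled nitrogen-excess shoot 3 and 4.17% in the library labelled control root 3. On the TMM scale, miR167 differed between root and shoot by a log2 fold change of -0.25 ± 0.69 (SE) in control plants and -0.21 ± 0.75 in nitrogen-excess plants. With equal totals these values were -0.95 and -0.91, where the median over all sequences tested moved by -0.88 and -0.54. For miR160 the TMM values were -0.50 ± 0.88 and 0.32 ± 0.77, and the equal-total values -1.21 and -0.19. None of the TMM values passed the test (lowest edgeR adjusted p = 0.869). Without the library that stood apart they were -0.35 and 0.020 for miR167 and -0.52 and 0.29 for miR160. Levels on the TMM scale ordered the groups for miR167 as control shoot (24523 ± 5404 CPM, SD, n = 3), control root (20629 ± 4925 CPM), nitrogen-excess shoot (18083 ± 4690.3 CPM) and nitrogen-excess root (15602 ± 9913 CPM). Neighbours in that order did not differ beyond their spread. For miR160 the order was control shoot (309 ± 166 CPM), nitrogen-excess root (269.8 ± 108 CPM), control root (218 ± 102 CPM) and nitrogen-excess shoot (217 ± 25.4 CPM), again within the spread.

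Other miRNAs of the auxin pathway were set beside the members, as a list of 3 families chosen with earlier results of these data known. miR390 starts the tasiRNAs that act on ARF3 and ARF4, miR393 acts on the auxin receptors TIR1 and AFB, and miR164 acts on NAC genes. With nitrogen excess 0 of the 3 families passed the test in either tissue. miR390 stood at 631, 519 and 497 CPM in control shoots and at 190.0, 235 and 189 CPM in nitrogen-excess shoots, which did not overlap. Its log2 fold change in shoots was -1.42 ± 0.65 (SE, edgeR adjusted p = 0.219), that of miR393 was -1.53 ± 0.82 (0.277) and that of miR164 was -0.59 ± 0.69 (0.710). In roots the 3 values were 0.07 ± 1.09, -0.12 ± 1.18 and 0.48 ± 1.15, each with an adjusted p of 0.980.

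The sequences whose pattern over the 12 libraries was most like that of the main guides were found from the root mean square difference of centred log2 (CPM + 1) values. For ata-miR160a-5p they were ata-miR167b-3p (0.56), tae-miR7757-5p (0.58) and bdi-miR1432 (0.65), of 157 sequences compared with a median of 1.33. For ata-miR167d-5p they were ata-miR156d-3p (0.49), hvu-miR156a (0.49) and bdi-miR156h-3p (0.54), of 151 compared with a median of 1.42. The libraries share their scaling factors in these values.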

How the data were processed

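Small RNA from 12 barley libraries was analysed in 4 groups of 3, as the labels give them. The authors' deposited tables, 1 per tissue, hold whole-number counts per sequence and library, normalized signal values, fold changes on the log2 scale and p-values. The submitters' processing notes name DESeq2, with trimming and counting not given in the sources used here. Each deposited normalized signal was its count divided by 1 factor per library, and only counts were analysed. Library totals ran from 245176 to 2246495, which limits sequences of few counts.

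Counts were scaled by TMM over all 12 libraries and tested with edgeR 4.0.16 (quasi-likelihood, groups compared only, all 12 libraries for the interaction) in R 4.3.3, over all sequences passing filterByExpr (minimum count 10, minimum total 15), with Benjamini-Hochberg adjustment at 0.05. The SE is the fold change over the root of F. Families were tested on summed counts. Ratios used a pseudocount of 0.5 and two-sided exact permutation (scipy 1.17.1), without adjustment for the number of ratios and comparisons tested. DESeq2 1.42.0, limma 3.58.1, other scalings and filters and left-out libraries were alternatives. The scripts were checked on simulated counts with less spread between replicates than these data, which tests the code and not the power here. Arms came from the names for 50 members, from the nearest named member within 5 edits for 14, and for 2 without counts from neither. Members with a mean of at least 10 counts were named with values, and as like sequences the 3 nearest of other families. The members and lists were chosen with earlier results of these data known. Replicates differed far beyond sampling noise (lowest chi-square per degree of freedom 336), so none were merged.

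Same-numbered roots and shoots of nitrogen-excess plants deviated together (correlations from 0.19 to 0.49 in 3 pairs). This was treated as pairing because none was under 0.1. Shoot 3 with root 2, of unequal numbers, also reached 0.25, so that the numbers pair the libraries is uncertain. With the replicate number as a block, 0 members were called there too.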

Additional observations from a re-analysis of the deposited data

How the results depend on the processing

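With all libraries, 0 members were called in each of the 5 comparisons. Between tissues in control plants this became 2 without a filter (ata-miR167a-3p and zma-miR167b-3p), 1 with DESeq2 (ata-miR167a-3p), and 0 to 2 with single libraries left out. In nitrogen-excess plants it became 0 to 1. No other alternative changed a count of called members, and none called miR160 or miR167 as a family. The cause was not tested. Without the libraries labelled nitrogen-excess shoot 3 or control root 3, nitrogen excess still gave 0 called members in the tissue concerned.

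With equal totals, the log2 fold change turned to 0.30 for ata-miR160a-5p (root, nitrogen), -0.33 for ata-miR167f-5p (shoot, nitrogen), -0.047 for ata-miR167d-3p (control plants, tissue) and -0.19 for miR160 (nitrogen-excess plants, tissue). In roots under nitrogen excess miR390 turned to -0.080 with DESeq2 and -0.24 with naming series as a term, miR393 to 0.030 with limma-voom and ata-miR167f-5p to 0.23 with naming series as a term. In shoots ata-miR167f-5p, at 0.050 with all libraries, turned to -0.13 with TMM within the comparison, -0.23 with DESeq2 size factors, -0.028 with DESeq2, -0.21 with limma-voom and -0.12 with a replicate block. Leaving out 1 library at a time, the nitrogen fold change in shoots ran from -0.95 to 0.22 for ata-miR160a-5p, from -0.12 to 2.53 for ata-miR167a-3p, from -0.58 to 0.30 for ata-miR167f-5p and from -0.75 to 0.022 for miR160. In roots it ran from -0.53 to 0.48 for ata-miR160a-5p, from -1.11 to 1.06 for ata-miR167f-5p, from -0.35 to 1.14 for ata-miR167a-3p, from -0.0041 to 0.67 for miR160, from -0.35 to 0.37 for miR390 and from -0.53 to 0.20 for miR393. Between tissues it ran from -0.86 to 0.033 for miR160 in control plants and from -0.87 to 0.038 for miR167 in nitrogen-excess plants. The log2 ratio of miR167 to miR160 ran from -0.30 to 0.11 (shoot, nitrogen) and from -0.010 to 0.45 (control plants, tissue), and miR167 5p over 3p from -1.07 to 0.28 (root, nitrogen). None of these passed a test with all libraries.

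Equal totals moved the median log2 fold change of all sequences tested by -0.24 and 0.39 for nitrogen in shoots and roots and by -0.88 and -0.54 between tissues. With a replicate block 0 members were called in each comparison. In the other 3 comparisons of groups the same-number correlations included values under 0.1 (lowest -0.25), so the numbers were not taken to pair the libraries. With 3 libraries a group, members of few counts, such as bna-miR167a, cannot show small differences. Members of many counts were limited too, by the spread between replicates. For nitrogen excess, ata-miR167d-5p (186874 counts) had an SE of 0.69 in shoots and 0.82 in roots. The lack of a call is therefore not evidence of no change.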

Other observations

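Among the miR167 5p variants with few counts, aly-miR167d-5p and bna-miR167a were lower in naming series A than in series B, and cme-miR167c was not. aly-miR167d-5p took 0.0381% to 0.137% of the miR167 5p counts in the 4 libraries of naming series A and 0.162% to 0.656% in the 7 of series B. In the library of series C it took 0.161%. bna-miR167a took 0% to 0.00507% in series A, 0.0770% to 0.188% in series B and 0.0689% in series C. cme-miR167c took 0.0257% to 0.0684% in series A, 0.0111% to 0.0635% in series B and 0.103% in series C. Series A holds 1 library of each group. The shares were chosen after their values were seen.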
